A study of Homo sapiens with 2 samples.

Results

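The heat shock protein and J-domain chaperone genes were taken by symbol from the deposited expression table: the HSP70 (HSPA), small heat shock protein (HSPB), HSP60 and HSP10 (HSPD, HSPE), HSP110 (HSPH) and cytosolic HSP90 families, the J-domain proteins (DNAJA, DNAJB, DNAJC), the BAG proteins and the transcription factors HSF1 and HSF2, with a few endoplasmic reticulum chaperones and inhibitors left out. This gave 76 of the 18930 genes in the table. For 3 of them (DNAJB3, DNAJB8 and HSPB2) the table holds no count. The other 73 all had at least 10 reads over both libraries, the minimum used here, as did 16210 genes in all. The symbol rule used no measured value, but it was chosen with earlier results of these data known.

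To investigate DTIC resistance, the study sequenced total RNA from 1 library labelled DR (DTIC-resistant) and 1 library labelled WT (wild type). DTIC is dacarbazine, an alkylating drug used in melanoma. By the labels both are A375 (a melanoma line of human origin) grown in DMEM with 10% FBS and treated for 105 days, WT included, whereas the study describes WT as the control for cells exposed to rising DTIC. The 2 columns of reads have names that differ by 1 punctuation mark and neither says wild type, so which column is DR and which is WT, and with it each direction given below, depends on the sample descriptions alone.

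The libraries held 54878310 (DR) and 35294629 (WT) estimated reads, so that 3 reads were worth 0.054 and 0.0861 CPM, the reads of a gene scaled to the size of its library. With no replicate there is no spread between samples and no p-value. A log2 fold change here is DR over WT on the log2(CPM + 0.5) scale, a gene was called at 2-fold (a log2 fold change of 1 in size), and each interval is a 95% Clopper-Pearson interval that covers counting error only. Most markers of the labelled cell type were scarce: SOX10 had 3 reads in DR and 0 in WT, and TYR and S100B had no count. Of 15 melanocytic genes with counts 2 reached 10 CPM in either library, RAB27A (78.9 and 63.5 CPM) and MITF (34.6 and 34.7 CPM). The 15 had summed levels of 133 CPM in DR and 113 CPM in WT. Among the 11 of them tested, 1 (CDH19, at 6.55 and 2.15 CPM) was past 2-fold higher in DR and 0 lower. Of 15 plasma cell genes 13 reached 10 CPM in both libraries, and the 15 had summed levels of 13193 and 11179 CPM. Past 2-fold higher in DR were 3 of the 15 (MZB1, DERL3 and CD79A, the last at 2.47 and 0.918 CPM), and 0 were past 2-fold lower. The shares of all 16210 genes tested were 7.48% higher and 4.16% lower. Of the 15, 6 lay below 0, beside 7933 of all genes tested, among them SDC1 (-0.62) and JCHAIN (-0.54). Fibroblast genes summed to 14.4 and 3.27 CPM and keratinocyte genes to 39.9 and 35.8 CPM. The part of these markers in the differences below was not tested, and in bulk RNA a change in the share of one kind of cell cannot be told apart from a change in RNA per cell.

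Heat shock proteins hold unfolded proteins and help them fold. HSP70 proteins bind exposed stretches of a client in cycles of ATP hydrolysis, J-domain proteins bring clients and trigger the hydrolysis, and HSP110 and BAG proteins release the nucleotide, while HSP90 finishes the folding of kinases and receptors with its own co-chaperones. Under heat or other protein damage HSF1 forms trimers, binds heat shock elements in the promoters of the inducible members and raises their transcription. Tumour cells often carry raised levels of these chaperones. Although the genes are often grouped as cytosolic, 8 of the 73 were listed here as mitochondrial (such as HSPA9, HSPD1 and HSPE1). A further 4 were listed at the endoplasmic reticulum (such as DNAJC1 and HSPA13), and neither list is meant to be complete. The Gene Ontology column of the deposited table gives the cytosol for 33 of the 73.

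Most chaperones were at like levels in both libraries. Of the 73 members, 3 were past 2-fold higher in DR (HSPA12A, HSPA1A and HSPA1B) and 2 past 2-fold lower (HSPB8 and DNAJC1). This was 4.11% and 2.74% of the members, where 7.48% of all 16210 genes tested were past 2-fold higher and 4.16% past 2-fold lower. The members' median log2 fold change was -0.03, beside 0.01 over all genes tested, and 51 of 73 members lay within 0.5 of 0 (69.9%, beside 68.4% of all genes tested). Their summed reads, 549845 in DR and 378817 in WT, were a like share of each library. When a minimum mean of 10 CPM was set, a choice made after seeing the data, 4.08% of 9860 genes were past 2-fold higher and 3.66% lower, beside 2 (HSPA1A and HSPA1B) and 1 (DNAJC1) of 48 members.

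**Figure D1:**
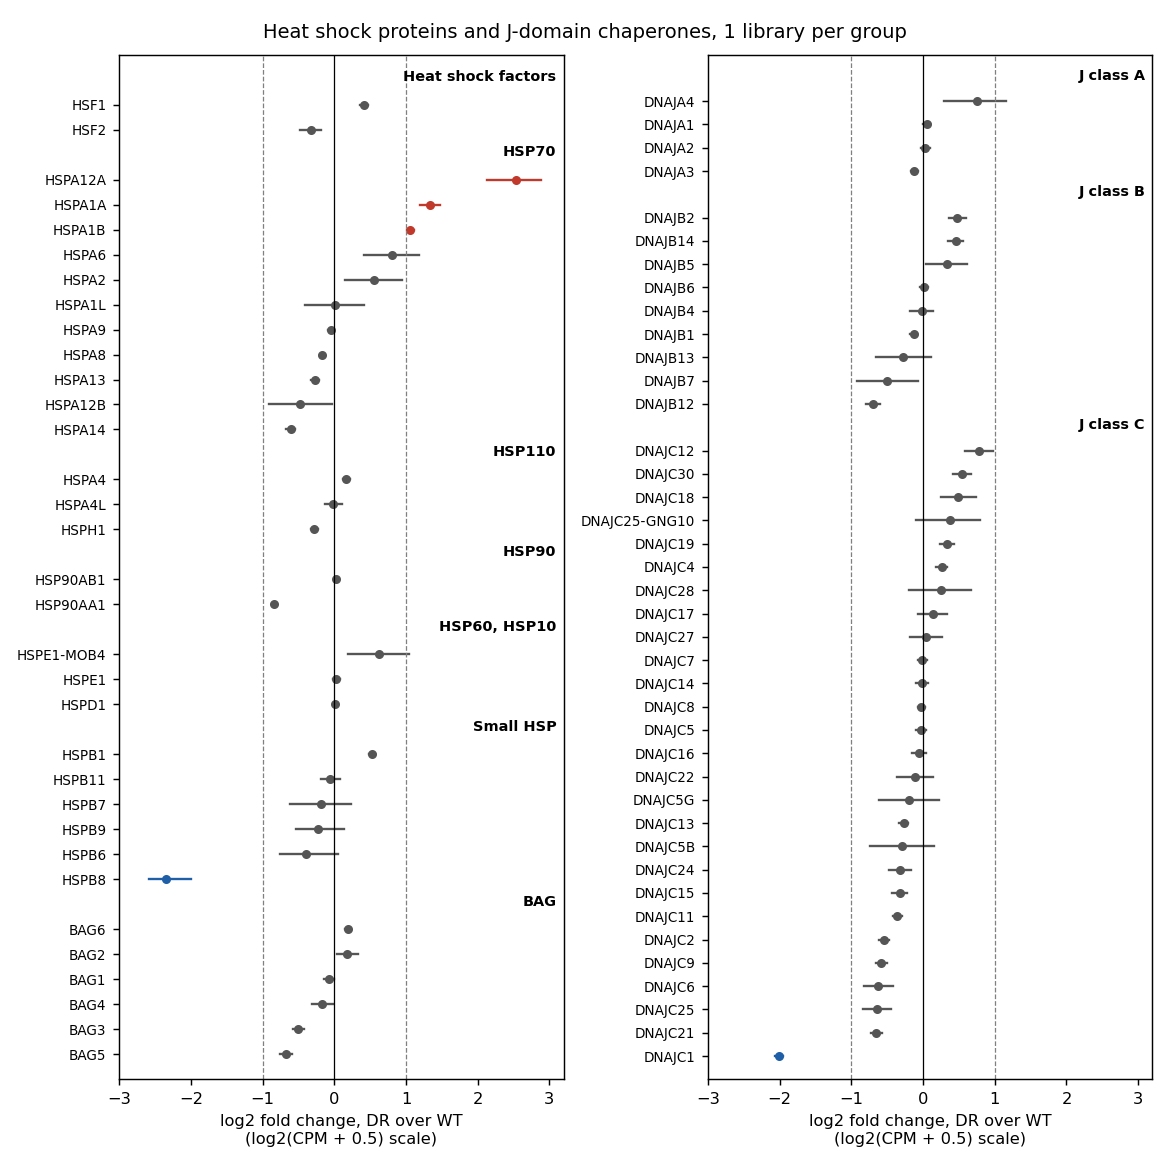
Log2 fold change (DR over WT, log2(CPM + 0.5) scale) of the 73 members by family, 1 library per group. Points are estimates, bars are 95% counting intervals, dashed lines mark 2-fold, red points are past 2-fold higher in DR and blue points past 2-fold lower. HSPA12A, HSPA1A and HSPA1B stand to the right of the lines, and HSPB8 and DNAJC1 to the left.

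**Figure D2:**
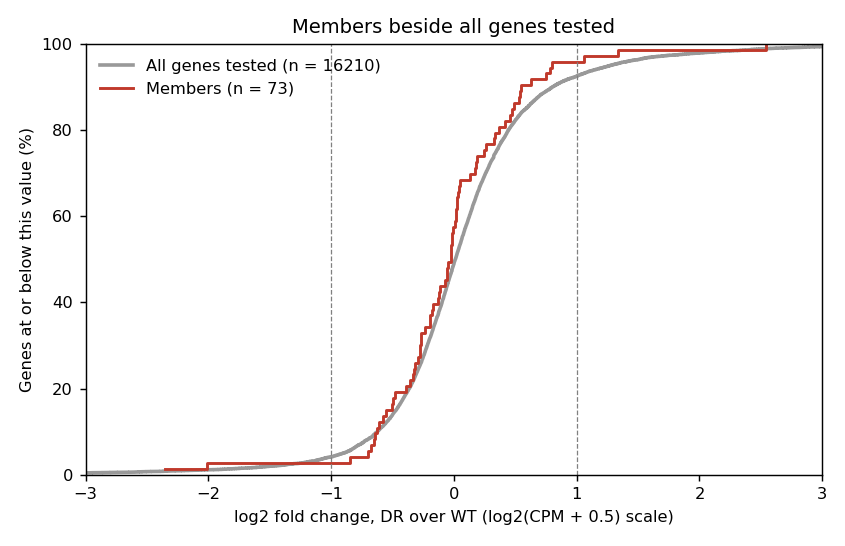
Cumulative share (%) of genes at or below each log2 fold change (DR over WT), for the 73 members (red) and all 16210 genes tested (grey). Dashed lines mark 2-fold, and the members' curve runs close to that of all genes, with medians of -0.03 and 0.01.

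The stress-inducible HSP70 genes HSPA1A and HSPA1B were higher in DR in these 2 libraries. Neither kept its call under edgeR's exact test with an assumed coefficient of variation of 0.4. HSPA1B, which with HSPA1A encodes the classical inducible HSP70, had 15175 reads in DR and 4555 in WT, or 273 and 131 CPM, a log2 fold change of 1.06 (1.01 to 1.11). HSPA1A had 1915 and 465 reads, or 34.5 and 13.3 CPM, a log2 fold change of 1.34 (1.19 to 1.48). Both genes carried fractional counts in the deposited table, as did 9108 of the 18267 genes with counts. Since HSPA1A and HSPA1B, neighbours on chromosome 6, are near-identical copies, how reads were divided between them is uncertain. Summed, they had 17090 and 5020 reads, or 308 and 144 CPM, a log2 fold change of 1.09 (1.05 to 1.14), with HSPA1A taking 11.2% of the pair's reads in DR and 9.26% in WT.

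HSPA8, the constitutive cytosolic HSP70 and the second most abundant member per length, differed far less, with 73204 and 51923 reads (1318 and 1489 CPM) and a log2 fold change of -0.18 (-0.19 to -0.16). Per length, HSPA1A and HSPA1B together stood at 20.7% of the level of HSPA8 in DR and at 8.56% in WT. HSPA6, another strictly stress-inducible HSP70, was scarce, with 140 and 43 reads (2.52 and 1.23 CPM) and a log2 fold change of 0.80 (0.42 to 1.18). The plain ratio of HSPA6 was 2.04 (1.44 to 2.95), so it missed the call through the 0.5 CPM added. HSPA1L, the testis-enriched gene beside HSPA1A, had 69 and 43 reads and a log2 fold change of 0.01 (-0.40 to 0.41). HSPA9, the mitochondrial HSP70, had 359 and 371 CPM and a log2 fold change of -0.05 (-0.08 to -0.02).

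HSPA12A, a distant HSP70 relative, had the largest value of the family but few reads. It had 245 reads in DR and 12 in WT, or 4.41 and 0.344 CPM, a log2 fold change of 2.54 (2.12 to 2.88) and a plain ratio of 12.8 (7.2 to 25.1). Its paralogue HSPA12B had 31 and 34 reads and a log2 fold change of -0.48 (-0.91 to -0.04). HSPA14, which pairs with the J-domain protein DNAJC2 on the ribosome, had 4231 and 4053 reads, or 76.2 and 116 CPM, a log2 fold change of -0.61 (-0.67 to -0.55). DNAJC2 had 58.7 and 86.2 CPM and a log2 fold change of -0.55 (-0.62 to -0.48), so both partners stood below 0 by similar amounts. Over the 11 HSP70 genes with counts, 3 were past 2-fold higher and 0 lower, beside 7.48% and 4.16% of all genes tested. The median log2 fold change of the 11 was 0.01, and the summed level was 2159 CPM in DR and 2233 CPM in WT.

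**Figure D3:**
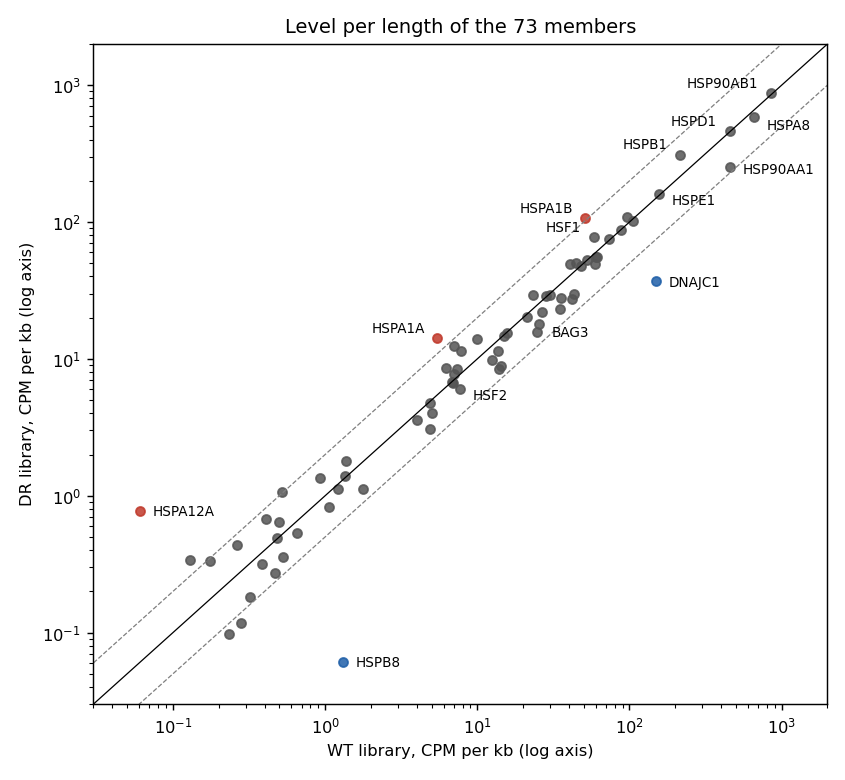
Level per length (CPM per kb, log axes) of the 73 members in the WT (x) and DR (y) libraries. The solid line marks equal levels and dashed lines 2-fold, and red and blue points were called higher and lower in DR. HSP90AB1 and HSPA8 lie at the top right, and 4 grey points outside the dashed lines are low-count genes whose plain ratio, but not their log2(CPM + 0.5) value, was past 2-fold.

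HSP90AA1, the inducible cytosolic HSP90 (HSP90 alpha), was lower in DR than in WT without reaching 2-fold, while its constitutive partner HSP90AB1 (HSP90 beta) differed little. HSP90AA1 had 47307 and 53370 reads, or 851 and 1531 CPM, a log2 fold change of -0.85 (-0.86 to -0.83), at the 5.66 percentile of all genes tested. HSP90AB1, the most abundant member per length in both libraries, had 130637 and 80649 reads, or 2351 and 2313 CPM, a log2 fold change of 0.02 (0.01 to 0.04). The level per length of HSP90AA1 was thus 29.1% of that of HSP90AB1 in DR and 53.1% in WT. HSP90AA1 and HSPA1A with HSPA1B, all inducible by HSF1, therefore lay on opposite sides of 0. Both HSP90 genes have pseudogenes that can take their reads.

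Because HSF1 acts through heat shock elements, the promoter windows of RefSeq (GRCh38.p14, 250 bases before to 50 after each transcript start) were searched on both strands for 3 alternating units spaced by 2 bases (GAANNTTCNNGAA or TTCNNGAANNTTC) and for 2 units (GAANNTTC or TTCNNGAA), of which every 3-unit match holds a pair that overlap. Of the 73 members 65 had an entry (88 windows), and DNAJC1, HSPA14, HSF1, DNAJC24, HSPA12B, BAG4, DNAJC5B and DNAJC22 had none. A 3-unit element stood in 7 of the 65 genes (10.8%), beside 0.523% of the 12803 tested genes with an entry and 0.49% of all 35116 windows. A 2-unit match stood in 22 (33.8%), beside 14.3% of the tested genes and 13.5% of all windows. Positions are counted from the transcript start, with -1 the last base before it. The upstream stretches around the elements are shown for the inducible and abundant members, 5′ to 3′ on the gene's strand, with bases of 2-unit and 3-unit matches in capitals, since these are the genes whose values are set against the element.
HSP90AA1: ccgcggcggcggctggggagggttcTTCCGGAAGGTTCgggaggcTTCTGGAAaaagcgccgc
HSP90AB1: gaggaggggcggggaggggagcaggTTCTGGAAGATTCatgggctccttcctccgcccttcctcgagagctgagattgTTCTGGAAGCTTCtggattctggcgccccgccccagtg
HSPA8: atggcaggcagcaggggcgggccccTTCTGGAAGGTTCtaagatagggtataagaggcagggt
HSPD1: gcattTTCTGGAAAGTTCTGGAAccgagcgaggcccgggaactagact
HSPA6: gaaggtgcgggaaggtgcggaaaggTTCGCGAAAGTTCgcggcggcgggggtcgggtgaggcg
DNAJB6: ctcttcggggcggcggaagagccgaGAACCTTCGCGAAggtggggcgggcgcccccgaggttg

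The stretch of HSP90AA1 is chr14:102087095-102087157 (minus strand), with the element beginning at -88. For HSP90AB1 it is chr6:44247753-44247868 (plus strand), with elements at -165 and -112. The HSPA8 stretch is chr11:123062154-123062216 (minus strand), with an element at -55, and a further one at -230 is not shown. For HSPD1 it is chr2:197500043-197500090 (minus strand), where 2 overlapping elements begin at -245 and -240. HSPA6 is shown at chr1:161524441-161524503 (plus strand) with an element at -74, and DNAJB6 at chr7:157336848-157336910 (plus strand) with one at -131. In DNAJA1 the 3-unit match began at position 4 after the start.

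The upstream windows of the pair that was called higher in DR are shown whole, since the copies are alike there too. The 250 bases aligned with 235 identical, 14 mismatched and 2 gap positions (93.6% identity). Each held a single 2-unit match, GAATATTC, at -106 in HSPA1A and at -105 in HSPA1B, and no 3-unit element by these letters, which allow no mismatch. HSPA1A is shown at chr6:31815293-31815542 (plus strand) and HSPA1B at chr6:31827488-31827737 (plus strand).
HSPA1A: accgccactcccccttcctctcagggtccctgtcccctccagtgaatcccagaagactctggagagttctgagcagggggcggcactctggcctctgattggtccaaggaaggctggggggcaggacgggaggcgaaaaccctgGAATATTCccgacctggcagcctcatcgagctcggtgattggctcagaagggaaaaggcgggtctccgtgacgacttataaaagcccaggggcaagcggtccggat
HSPA1B: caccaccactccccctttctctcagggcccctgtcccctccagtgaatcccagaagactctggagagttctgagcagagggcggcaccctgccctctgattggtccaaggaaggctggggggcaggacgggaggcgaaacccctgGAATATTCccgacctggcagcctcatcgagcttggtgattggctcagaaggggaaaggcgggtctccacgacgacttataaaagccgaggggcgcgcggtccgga

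The members with a 3-unit element did not move together. Their log2 fold changes ran from -0.85 (HSP90AA1) to 0.80 (HSPA6), with a median of 0.01. Past 2-fold were 0 of 7, beside 7.48% of all genes tested higher and 4.16% lower, though the plain ratio of HSPA6 was 2.04. The 4 others near 0 besides HSPA8 were DNAJB6 (0.01), HSPD1 (0.01), HSP90AB1 (0.02) and DNAJA1 (0.05). Of the 15 members with a 2-unit match only, 2 were past 2-fold higher (HSPA1A and HSPA1B) and 1 lower (HSPB8). HSPB8 also held GAATATTC, at -88, and so did HSPA1L, at -161, with a log2 fold change of 0.01 (-0.40 to 0.41). Of the 43 members with neither, 1 was past 2-fold (HSPA12A), and the median was -0.02 in both of these groups. These groups share their families and differ in level, with a median of 851 CPM in DR for the 7 genes with a 3-unit element and 42.4 CPM for the 43 with neither. Among the 43 were HSPE1, BAG3 and HSPH1, which are listed below as induced by HSF1. Lack of a match by these letters in these windows therefore does not mark a gene as outside the reach of HSF1.

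**Figure D4:**
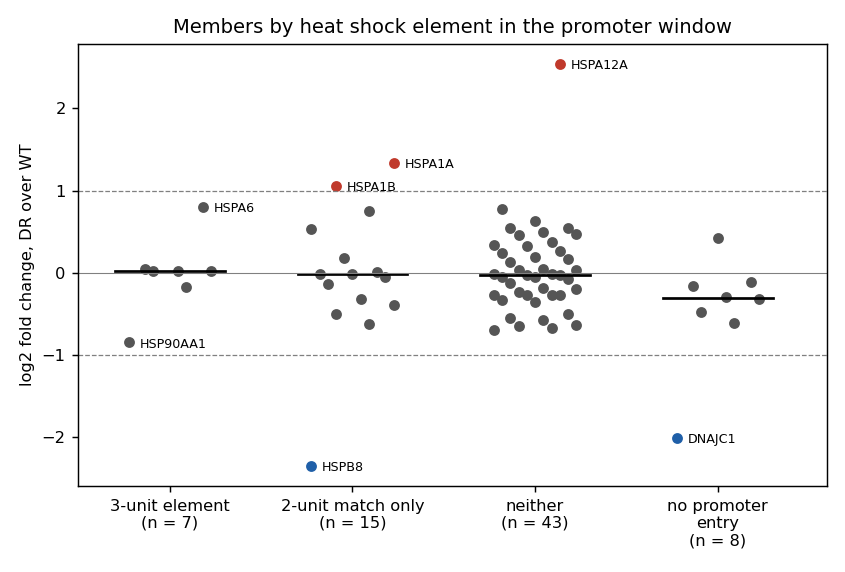
Log2 fold change (DR over WT) of each member by the heat shock element in its promoter windows. Each point is 1 gene, black bars are medians, dashed lines mark 2-fold, and horizontal scatter is for display. HSP90AA1 and HSPA6, both with a 3-unit element, lie on opposite sides at -0.85 and 0.80.

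Both heat shock factors were measured. HSF1, the main factor of the heat shock response, had 9330 and 4380 reads, or 168 and 126 CPM, a log2 fold change of 0.42 (0.37 to 0.47). HSF2, which forms mixed trimers with HSF1, had 878 and 697 reads, or 15.8 and 20.0 CPM, a log2 fold change of -0.33 (-0.47 to -0.19). Of the 21 genes listed as induced by HSF1, 20 were tested, 2 (HSPA1A and HSPA1B) were past 2-fold higher and 0 lower. Of all genes tested, 7.48% were past 2-fold higher and 4.16% lower. The median log2 fold change of the list was 0.00. Most genes of this list are members, so it largely repeats their values, and it holds genes called constitutive above, such as HSPA8. The most abundant gene of the list per length was HSP90AB1 in both libraries. Of the other HSF family genes and HSF-binding proteins 5 were tested and HSBP1L1 alone was past 2-fold, with 128 and 10 reads, a log2 fold change of 1.83 (1.40 to 2.18), while HSBP1, which binds HSF1 trimers and was the most abundant of that list per length, had 28.0 and 49.1 CPM and a log2 fold change of -0.80 (-0.90 to -0.70).

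Mitochondrial HSP60 (HSPD1) and its lid HSP10 (HSPE1), transcribed head to head from a shared promoter, differed little. HSPD1 had 59883 and 37195 reads, or 1078 and 1067 CPM, a log2 fold change of 0.01 (-0.0041 to 0.0333). HSPE1 had 8578 and 5282 reads, or 154 and 152 CPM, a log2 fold change of 0.03 (-0.02 to 0.08). The ratio of HSPD1 to HSPE1 per length was 2.88 in DR and 2.91 in WT. The read-through gene HSPE1-MOB4, which shares exons with HSPE1, had 79 and 26 reads, so its value of 0.63 is uncertain. None of the 8 members listed as mitochondrial was past 2-fold, beside 7.48% of all genes tested higher and 4.16% lower. The median log2 fold change of the 8 was -0.02.

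Among the small heat shock proteins, which hold unfolded clients without ATP, the abundant HSPB1 and the scarce HSPB8 lay on opposite sides. HSPB1 (HSP27) had 15779 and 6842 reads, or 284 and 196 CPM, a log2 fold change of 0.53 (0.49 to 0.57). HSPB8 (HSP22), the partner of BAG3 in chaperone-assisted autophagy, had 7 reads in DR and 94 in WT, or 0.126 and 2.70 CPM, a log2 fold change of -2.35 (-2.59 to -1.999). HSPB6, HSPB7 and HSPB9 had between 4 and 51 reads in each library and intervals that span 0. The eye-lens crystallin CRYAB, a small heat shock protein outside the symbol rule, had 3 and 1 reads.

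BAG proteins release nucleotide from HSP70 and tie it to other pathways. Past 2-fold were 0 of 6, beside 7.48% of all genes tested higher and 4.16% lower. BAG3, induced by HSF1, had 2584 and 2299 reads, or 46.5 and 65.9 CPM, a log2 fold change of -0.50 (-0.58 to -0.42). BAG1 had 78.2 and 82.4 CPM and a log2 fold change of -0.07 (-0.14 to -0.01). BAG6, which guards tail-anchored and misplaced membrane proteins, was the most abundant, at 399 and 350 CPM, with a log2 fold change of 0.19 (0.16 to 0.22). BAG5 was lowest of the family at -0.68 (-0.76 to -0.60). The HSP110 genes, which serve HSP70 as nucleotide exchange factors, ran from -0.28 (-0.32 to -0.23) for HSPH1, with 161 and 196 CPM, to 0.17 for HSPA4.

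The J-domain proteins were the largest class, with 40 genes tested and a median log2 fold change of -0.03. Of these, 0 were past 2-fold higher and 1 lower, beside 7.48% and 4.16% of all genes tested. DNAJB1 (HSP40), the inducible partner of HSP70, had 7312 and 5031 reads, or 132 and 144 CPM, a log2 fold change of -0.13 (-0.18 to -0.08), and so did not follow HSPA1A and HSPA1B past 2-fold. DNAJA1, the main constitutive class A protein, had 182 and 176 CPM and a log2 fold change of 0.05 (0.0034 to 0.095). DNAJC8, found with the spliceosome and among the 10 most abundant members per length, had 154 and 156 CPM and a log2 fold change of -0.02 (-0.07 to 0.03), which became 0.01 when libraries were scaled by their totals. The 4 class A genes ran from -0.12 to 0.75 and the 9 class B genes from -0.70 to 0.47. DNAJB12 and DNAJB14, a related pair in the endoplasmic reticulum membrane, stood at the low end and near the high end of class B, at -0.70 (-0.80 to -0.60) and 0.46 (0.35 to 0.56). Among the class C genes DNAJC12, which binds aromatic amino acid hydroxylases, had the highest value, 0.78 (0.58 to 0.98), at 12.6 and 7.11 CPM.

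Class C proteins share the J domain and little else, and 26 of the 27 tested lay within 2-fold. DNAJC9, a histone chaperone, had 3065 and 2885 reads, or 55.2 and 82.8 CPM, a log2 fold change of -0.58 (-0.65 to -0.51). DNAJC21, which acts in the maturation of the large ribosomal subunit, had 49.5 and 78.0 CPM and a log2 fold change of -0.65 (-0.73 to -0.57). Of the J-domain proteins of the mitochondrial import motor, DNAJC15 and DNAJC19 lay on opposite sides, at -0.33 (-0.43 to -0.22) and 0.33 (0.23 to 0.43). DNAJC6 (auxilin), which strips clathrin from vesicles with HSPA8, had 360 and 358 reads, or 6.48 and 10.3 CPM, a log2 fold change of -0.63 (-0.83 to -0.42). DNAJC7, which binds both HSP70 and HSP90, had 91.1 and 91.7 CPM and a log2 fold change of -0.01 (-0.07 to 0.05), so a difference beyond counting error was not detectable there.

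Of the other class A and B proteins, DNAJB6, which keeps polyglutamine proteins from aggregating, had 108 and 107 CPM and a log2 fold change of 0.01 (-0.04 to 0.07). DNAJB2, which carries ubiquitin-interacting motifs, had 33.4 and 23.9 CPM and a log2 fold change of 0.47 (0.36 to 0.59). DNAJA3, the mitochondrial class A protein, had 149 and 163 CPM and a log2 fold change of -0.12 (-0.17 to -0.07). DNAJA4 reached 0.75 (0.29 to 1.16) on 54 and 13 reads. Over all 73 members the counting interval lay above 0 for 22, below 0 for 27 and spanned 0 for 24. Over all 16210 genes tested it lay above 0 for 5805, below 0 for 5604 and spanned 0 for 4801. Such counts measure how deep these libraries were and not how replicates would vary.

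DNAJC1, a J-domain protein of the endoplasmic reticulum membrane, had the largest difference among the 48 members with a mean of at least 10 CPM. It had 4486 reads in DR and 11391 in WT, or 80.7 and 327 CPM, a log2 fold change of -2.01 (-2.06 to -1.96), 4.05-fold higher in WT. Per length it ranked 7 among the members in WT and 20 in DR. The other 3 members listed here at the endoplasmic reticulum, a list that is not complete, had log2 fold changes from -0.70 (DNAJB12) to 0.46 (DNAJB14).

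On chromosome 10 the genes next to DNAJC1 were lower in DR as well, as set out here after their values were seen. In RefSeq gene order the 5 genes after it were all past 2-fold lower, beside 4.16% of all genes tested. BMI1, a Polycomb protein, had 3998 and 14574 reads, or 72.0 and 418 CPM, a log2 fold change of -2.53 (-2.58 to -2.48). COMMD3 had 3053 and 5895 reads and a log2 fold change of -1.61, and the read-through gene COMMD3-BMI1, which shares exons with both and whose reads are therefore uncertain, had -2.85. SPAG6 had 107 and 273 reads and a log2 fold change of -1.78. EBLN1 had 0 and 20 reads and a log2 fold change of -1.10 (-1.10 to -0.80), so its interval reached inside 2-fold. Set against a floor of 3 reads in DR, EBLN1 was 10.6-fold lower there, without the counting error of its WT reads. The genes that flank this stretch of 6 lay nearer to 0, with MLLT10 at -0.58 and PIP4K2A at -0.50. Within 6 genes on the other side, NEBL was past 2-fold higher, at 104 and 6 reads. Whether these values share a source was not tested.

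Around HSPA1A and HSPA1B the neighbours did not stand with the pair. HSPA1L (0.01), LSM2 (-0.06), SNHG32 (0.16) and NEU1 (0.10), the closest genes on either side, were all within 0.5 of 0, and of the 12 genes nearest to HSPA1A only HSPA1B and the complement gene C2 were past 2-fold higher, C2 with 280 and 75 reads. For HSPA12A, also on chromosome 10, 1 of the 12 nearest genes was past 2-fold higher and 2 were past 2-fold lower. For HSPB8, on chromosome 12, 1 of 12 was past 2-fold lower and 0 higher. These counts stood beside 7.48% of all genes tested past 2-fold higher and 4.16% lower. The median log2 fold change of the 12 genes nearest to HSPB8 was -0.44, beside 0.01 over all genes tested.

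**Figure D5:**
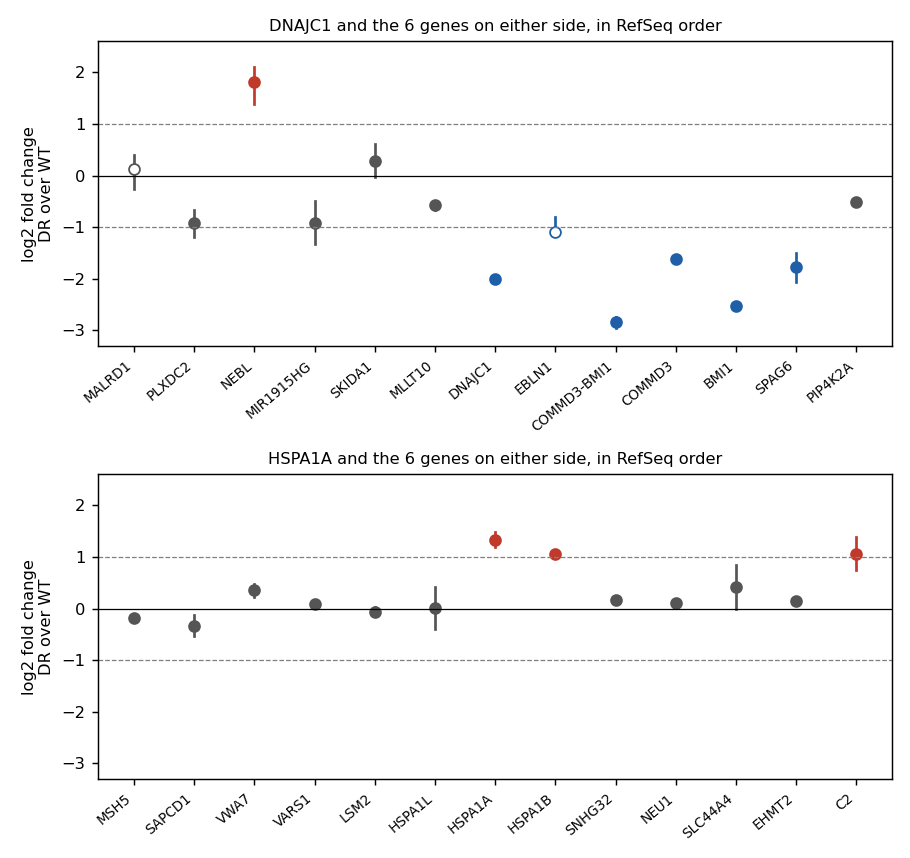
Log2 fold change (DR over WT, y axis) of DNAJC1 (top) and HSPA1A (bottom) with the 6 genes on either side in RefSeq order (x axis). Bars are 95% counting intervals, open points have fewer than 50 reads over both libraries, dashed lines mark 2-fold, and red and blue points are past it. DNAJC1 and the 5 genes after it lie below the lower line, whereas HSPA1A and HSPA1B stand above genes near 0.

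Few partners of these chaperones were past 2-fold, as were few of all genes tested. Of 25 co-chaperones of HSP90 and HSP70, 0 were past 2-fold higher and 1 lower, beside 7.48% and 4.16% of all genes tested. The 1 was FNIP2, which slows the ATPase of HSP90. It had 1767 and 2307 reads, or 31.8 and 66.2 CPM, and a log2 fold change of -1.05 (-1.13 to -0.96). The median of the co-chaperones was -0.08, beside 0.01 over all genes tested. Below 0 lay 19 of the 25, beside 7933 of all 16210 genes tested. PTGES3 (p23), the most abundant of them per length, had 553 and 584 CPM and a log2 fold change of -0.08 (-0.11 to -0.05). AHSA1, the activator of the HSP90 ATPase, had 109 and 167 CPM and a log2 fold change of -0.62 (-0.67 to -0.57).

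For the chaperonin TRiC, which folds actin and tubulin, and its feeder prefoldin, 0 of 14 genes were past 2-fold in either direction. Of all genes tested, 7.48% were past it higher and 4.16% lower. Of the 14, 11 lay below 0, beside 7933 of all 16210 genes tested. The median of the 14 was -0.14. CCT3, the most abundant per length, had 631 and 934 CPM and a log2 fold change of -0.56 (-0.59 to -0.54). By the Gene Ontology column of the deposited table, 22 members bind unfolded protein. Of these, 2 (HSPA1A and HSPA1B) were past 2-fold higher and 0 lower, beside the same shares of all genes tested. Their median was 0.03, beside 0.01 for the 89 tested genes with that term.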

How the data were processed

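Total RNA of 2 libraries (DR and WT, 1 each) was sequenced. The authors deposited estimated counts per gene with gene lengths. The submitters' processing notes name Bowtie 0.12.2 and hg19, and the counting tool and annotation are not given in the sources used here. The columns of their own comparison (a log2 ratio with its p and q) were not used. Estimated counts were rounded. They were fractional for 44 of 73 members and for 9108 of the 18267 genes with counts. Reads shared between genes can give fractions, but with the counting tool unknown this was not tested. Whether counting used strand is not stated.

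Libraries were scaled over the whole table with edgeR 4.0.16 (TMM) in R 4.3.3. A gene needed 10 reads or more in total, 0.5 CPM was added before log2, and 2-fold was the call. With 1 library per group no replicated test could be fitted, and no p-value is given. Reads carry no molecular identifiers, so intervals (95%, SciPy 1.17.1) and the floor of 3 reads cover counting error only. Alternatives were DESeq2 1.42.0 size factors, library totals, other read minimums, pseudocounts and folds, a binomial test and edgeR's exact test with assumed spreads. Levels between genes were compared per length.

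The members and gene lists were chosen with earlier results of these data known. Named were members past 2-fold, the 10 most abundant per length in either library, 15 core chaperones whatever their values, and of each partner list the genes past 2-fold and the most abundant. Other members named beside these, AHSA1 and the neighbours were chosen after their values were seen. Gene IDs of 17944 of the 18267 genes with counts matched RefSeq (GRCh38.p14), used for gene order and promoters. A search of protein sequences that had been planned was not analysed here.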

Additional observations from a re-analysis of the deposited data

How the results depend on the processing

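With 1 library per group, no replicate could be left out. No paired analysis was possible because each group has 1 library, and no value has a spread between samples. The count of members past 2-fold was 3 higher and 2 lower (1212 and 674 of all genes) and was the same for the members with DESeq2 size factors, library totals, no minimum of reads, a minimum of 50 reads and the binomial test. With 0.1 CPM added 4 members were higher and 2 lower (1726 and 907 genes). With 5 CPM added 2 members were higher and 1 lower, with 423 genes higher and 333 lower, and HSPA12A and HSPB8 fell short of 2-fold at 0.82 and -0.59. With a mean of at least 10 CPM, chosen after seeing the data, 1 member was lower, with 402 and 361 genes. A fold of 1.5 gave 7 members higher and 9 lower (2444 and 1808 genes), 3 co-chaperones, 2 TRiC or prefoldin genes and 2 HSF1-induced genes lower. A fold of 3 gave 1 member higher (510 and 286 genes), 0 HSF1-induced genes higher and 0 co-chaperones lower. With edgeR's exact test at an assumed coefficient of variation of 0.4 there was 1 member each way (301 and 145 genes). There were 0 HSF1-induced genes higher, so neither HSPA1A nor HSPA1B kept its call. At 0.2 there were 2 members each way (1050 and 565 genes). At this spread 1 HSF1-induced gene was higher, so 1 of HSPA1A and HSPA1B lost its call. At both, and with 5 CPM added, 0 co-chaperones were lower. The causes of these moves were not tested, beyond fewer genes passing a stricter rule. The members' median ran from -0.04 to 0.01 over the settings. Of the 21 members tried singly, DNAJC8 alone changed sign, from -0.02 to 0.01 with library totals. Depth limits the 25 of 73 members under 10 CPM, and of these HSPA12A and HSPB8, the ones tried singly, moved with the amount added (3.34 and -3.63 with 0.1 CPM).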
